A study of Mus musculus with 4 samples.

Results

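The 10 genes described here encode the 5 subunits of the transcription factor NF-κB (Nfkb1, Nfkb2, Rel, Rela and Relb) and 5 regulators that act on it (Nfkbia, Nfkbib, Nfkbie, Tnfaip3 and Bcl3). They were chosen by gene symbol, and each was found on 1 row among the 24346 rows of the expression table. RNA-seq was performed on mBMSCs, femoral bone marrow-derived mesenchymal stem/progenitor cells of wild-type C57BL/6 mice aged 3 months, at 72 h after transfection with a scrambled siRNA (siScr, 2 samples) or with siRNA targeting ZBP1 (siZBP1, 2 samples). All 4 samples were cultured in the same serum-containing medium and transfected with the same lipid reagent, and no untransfected sample was analysed here. ZBP1 is a sensor of Z-form nucleic acids that can engage kinases upstream of NF-κB and interferon regulatory factors. The sources used here do not say whether the replicate samples came from separate mice, so that p-values measure only the spread between these samples, which may be technical.

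NF-κB acts as dimers of its subunits. RELA, c-REL and RELB, encoded by Rela, Rel and Relb, carry transactivation domains, whereas the products of Nfkb1 and Nfkb2 are precursors that are processed to p50 and p52 and bring DNA binding to the dimers. In resting cells, IκB proteins hold dimers in the cytoplasm, and their phosphorylation by the IKK complex releases mainly RELA and p50 (the canonical pathway), while NIK and IKKα drive the processing of the Nfkb2 product and the release of RELB and p52 (the noncanonical pathway). Several of the inhibitors are themselves NF-κB target genes and close a negative feedback loop. In stromal cells of bone marrow the pathway is known for inflammatory output, and in osteoblast precursors its activity is known to restrain bone formation.

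Because the autoregulation of this family runs through κB sites, the promoter windows of the 10 genes were searched for the κB motif, which has 10 letters, on both strands, with overlapping matches allowed. RefSeq windows on GRCm38.p6, each with 250 bases before and 50 after an annotated start, were at hand for 8 of the 10 genes, all except Nfkb1 and Relb. A match was found for 6 of these 8 genes. Of the 27025 genes with such a window 9.55% had one, and 12.4% of the 9005 that were also tested for a change below. A gene counted if any of its windows held a match, and Nfkb2 had 3 windows and Tnfaip3 had 2. Rela and Nfkbib had no match in their windows, which says only that these letters are absent there. One stretch of 30 bases is shown for each gene with a match, on the strand of the gene, 5′ to 3′, with the match in capitals, since these are the genes whose κB sequences are at hand beside their expression. They lie at chr12:55492657-55492686 (Nfkbia, minus strand), chr17:45555584-45555613 (Nfkbie, plus strand), chr7:19822734-19822763 (Bcl3, minus strand), chr10:19015403-19015432 (Tnfaip3, minus strand), chr19:46304716-46304745 (Nfkb2, plus strand) and chr11:23771042-23771071 (Rel, minus strand). A match is a description of letters and not a site shown to be bound in these cells.
Nfkbia: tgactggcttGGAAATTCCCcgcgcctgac
Nfkbie: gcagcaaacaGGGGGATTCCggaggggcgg
Bcl3: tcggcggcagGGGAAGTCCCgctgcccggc
Tnfaip3: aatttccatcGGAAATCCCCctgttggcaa
Nfkb2: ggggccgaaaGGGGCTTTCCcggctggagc
Rel: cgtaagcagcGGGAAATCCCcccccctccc

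All 10 genes were expressed. In FPKM, which scales fragments to transcript length and library size and so allows genes to be compared, the siScr means ran from 3.99 for Tnfaip3 to 36.4 for Rela. Rela was the most abundant transcript of the family in both groups, followed by Nfkbia, Nfkb1 and Nfkb2, and Tnfaip3 was the least abundant in both. In siScr cells, the replicates of Nfkb2 and Nfkbib overlapped, as did those of Rel and Relb, and the other neighbours in the order were apart. In siZBP1 cells, Bcl3 stood above Nfkbib, whereas it stood below Nfkbib in siScr cells, and Relb, Nfkbie and Rel could not be ordered beyond the spread of their replicates.

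**Figure D1:**
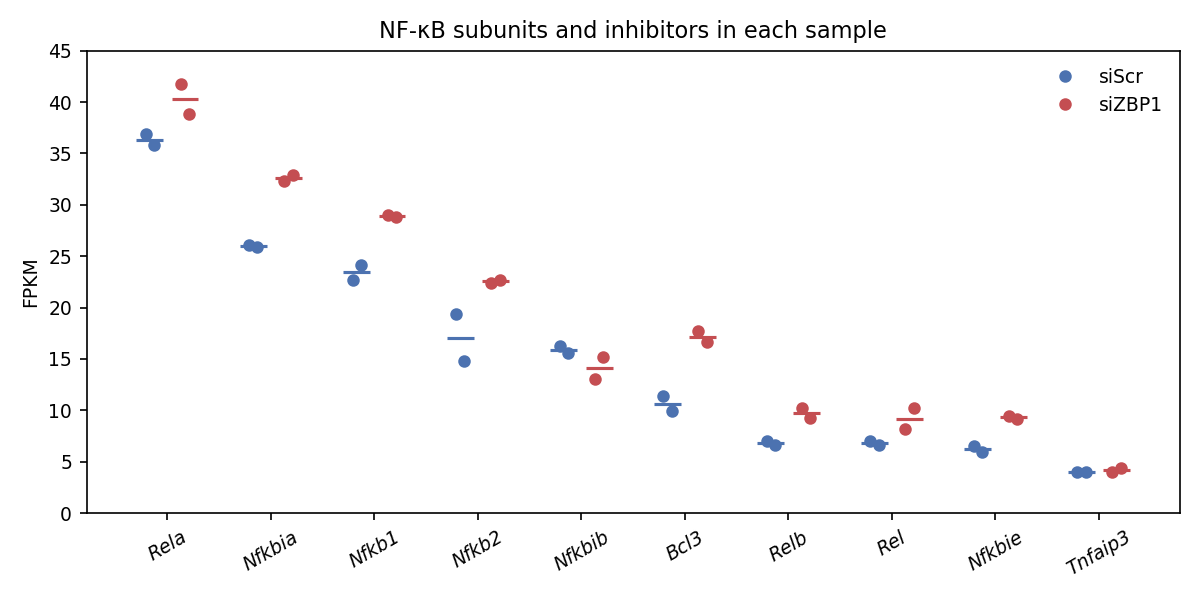
FPKM of each gene (y axis, linear from 0) in the siScr (blue) and siZBP1 (red) samples, with 1 point per sample and a line at each group mean (n = 2), and genes ordered by their mean. The red points lie above the blue ones for 8 genes, below them for Nfkbib, and overlap for Tnfaip3.

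Zbp1 itself was at 86.0 and 62.0 FPKM in the siScr samples and at 11.5 and 11.6 FPKM in the siZBP1 samples, a log2 fold change of -2.56 (standard error 0.16, limma adjusted p = 0.00322). In the ZBP1-depleted cells, Bcl3, Nfkbie, Relb, Nfkbia and Nfkb1 rose, and no gene of the family was called lower. The rises were moderate, from a ratio of the group means of 1.23 for Nfkb1 to 1.61 for Bcl3. By limma on log2(FPKM + 1), with p-values adjusted over the 11959 genes tested, 5 of the 10 genes were called higher and 0 lower, where 13.5% of all genes tested were called higher and 14.8% lower. At an unadjusted p under 0.05 the count was 8, and all 8 had a higher mean in siZBP1 cells, where 20.7% of all genes tested had such a p and a higher mean. Over the 10 genes the log2 fold change had a median of 0.34, and over all genes tested one of 0.0045. The values of siZBP1 lay above those of siScr without overlap for 8 of the 10 genes, against 34.7% of all genes tested, and below for 1, against 33.7%. The smallest two-sided p that an exact permutation test allows for 2 samples in each group is 0.333, and the adjusted p-values rest on the variance that limma shares between genes. With any 1 sample left out, limma called fewer genes, both in the family and among all genes tested. The calls of the 5 genes did not hold without a siZBP1 replicate. Such a fit leaves 1 sample in a group and takes its spread from the other group. Over all fits with 1 sample of either group left out, the log2 fold change ran from 0.25 to 0.33 for Nfkb1. It ran from 0.39 to 0.53 for Relb and from 0.30 to 0.33 for Nfkbia. It ran from 0.45 to 0.56 for Nfkbie and from 0.55 to 0.73 for Bcl3.

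**Figure D2:**
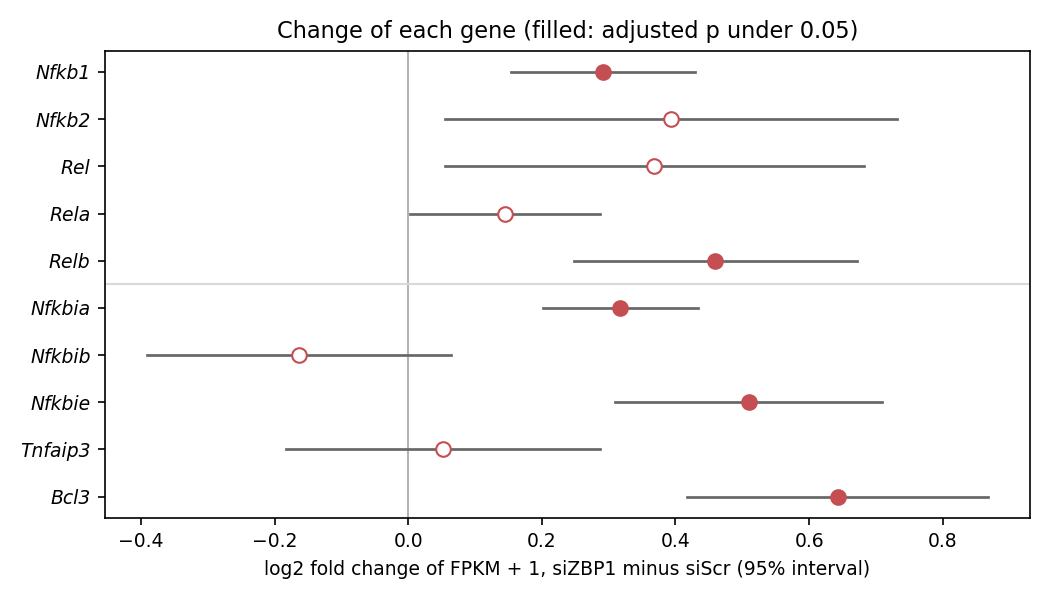
Change of each gene between siZBP1 and siScr (x axis, log2 fold change of FPKM + 1), as the limma estimate with its 95% interval, subunits above the grey line and inhibitors below it, filled where the limma adjusted p was under 0.05. The intervals of Bcl3, Nfkbie, Relb, Nfkbia and Nfkb1 lie farthest from 0 relative to their width, and those of Nfkbib and Tnfaip3 include 0.

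Among the subunits, 2 of 5 were called higher. Relb, the transactivating subunit of the noncanonical pathway, was at 6.98 and 6.65 FPKM in siScr cells and at 10.3 and 9.25 FPKM in siZBP1 cells. Both siZBP1 samples were above both siScr samples, and the log2 fold change was 0.46 (standard error 0.08, limma adjusted p = 0.0196). Nfkb1, which encodes the p105 precursor of p50, was at 22.7 and 24.2 FPKM in siScr cells and at 29.0 and 28.8 FPKM in siZBP1 cells. Its groups did not overlap, and the log2 fold change was 0.29 (standard error 0.05, limma adjusted p = 0.0207). Without siScr replicate 1, the limma adjusted p of Nfkb1 was 0.0641 and that of Relb 0.0658, and without siScr replicate 2 that of Relb was 0.0625.

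Nfkb2, which encodes the p100 precursor of p52, was at 19.3 and 14.8 FPKM in siScr cells and at 22.4 and 22.7 FPKM in siZBP1 cells. The siScr samples lay farther apart than for any other member relative to their mean, and the difference between groups did not pass the threshold (log2 fold change 0.39, 95% interval 0.05 to 0.73, limma adjusted p = 0.0855). Without siScr replicate 1 the log2 fold change of Nfkb2 was 0.57 and it was called (limma adjusted p = 0.0275), and without siScr replicate 2 it was 0.21 (limma adjusted p = 0.0765). Rel, the hematopoietic c-REL subunit, was at 7.07 and 6.67 FPKM in siScr cells and at 8.16 and 10.2 FPKM in siZBP1 cells. Here the siZBP1 samples were the ones that lay apart, and Rel missed the threshold with a log2 fold change of 0.37 (95% interval 0.05 to 0.68, limma adjusted p = 0.0833). With microRNA and small nucleolar RNA genes left out of the fit, limma gave an adjusted p of 0.0414 for Nfkb2 and of 0.0478 for Rel. In that fit 7 of the 10 genes were called higher, where 1916 of all 11776 genes tested were called higher and 2070 lower. Of the exon bases of Nfkb2 in GENCODE M21, 12.6% are shared with AC114539.1 and 7.08% with Psd, both on the opposite strand, and the sources used here do not state that counting used strand. Psd was at 0.769 ± 0.0822 FPKM in siScr cells and 0.795 ± 0.0474 FPKM in siZBP1 cells (SD, n = 2 each). The part of the shared bases in the values of Nfkb2 was not tested.

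Rela, which encodes the p65 subunit of the canonical dimer, was at 36.9 and 35.8 FPKM in siScr cells and at 41.8 and 38.9 FPKM in siZBP1 cells. The groups did not overlap, but Rela missed the threshold with a log2 fold change of 0.15 (95% interval 0.0027 to 0.29, limma adjusted p = 0.114).

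The summed FPKM of the 5 subunits was 93.0 and 88.1 in the siScr samples and 112 and 110 in the siZBP1 samples. The share of Rela in this sum was 39.7% and 40.6% in siScr cells and 37.4% and 35.4% in siZBP1 cells, and that of Relb was 7.51% and 7.54% against 9.20% and 8.42%. The Nfkb1 share was 24.4% and 27.4% against 26.0% and 26.2%, so that its groups overlapped. The ratio of Relb to Rela was 0.187 ± 0.0025 in siScr cells and 0.242 ± 0.0058 in siZBP1 cells (SD, n = 2 each). The ratio of Nfkb2 to Nfkb1 was 0.851 and 0.614 in siScr cells and 0.773 and 0.789 in siZBP1 cells, which overlap. These shares and ratios are descriptions of mRNA levels and were not tested.

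**Figure D3:**
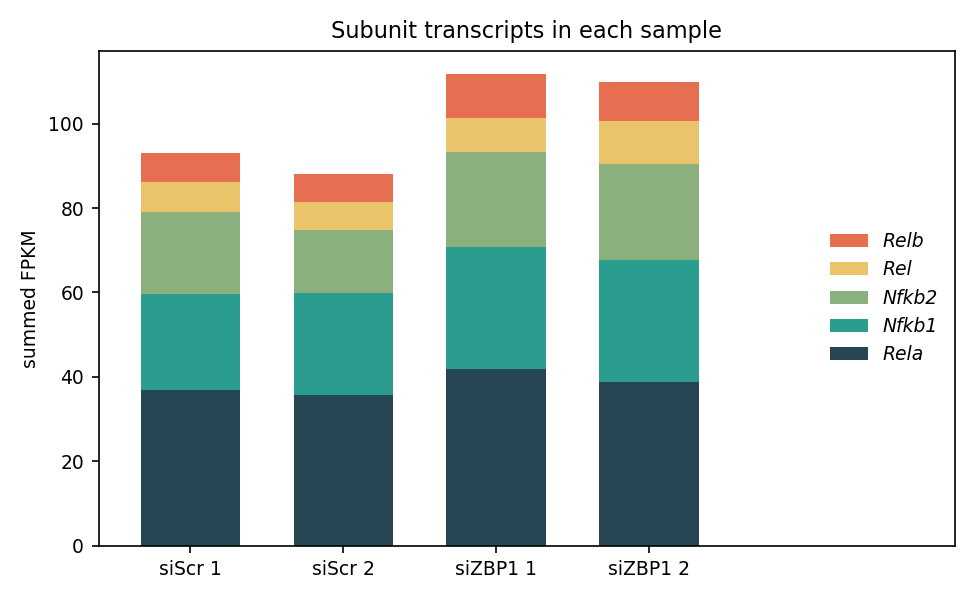
Summed FPKM of the 5 NF-κB subunits (y axis, linear from 0) in each of the 4 samples, with each subunit as a coloured segment. The siZBP1 bars reach 112 and 110 FPKM and the siScr bars 93.0 and 88.1 FPKM, with Rela as the lowest and longest segment in each.

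Among the regulators, 3 of 5 were called higher. Bcl3, a nuclear IκB protein that joins p50 and p52 dimers on DNA and can act as a coactivator, had the largest change of the 10 genes on both scales. It was at 11.4 and 9.90 FPKM in siScr cells and at 17.7 and 16.6 FPKM in siZBP1 cells. Both siZBP1 samples were well above both siScr samples, with a log2 fold change of 0.64 (standard error 0.09, limma adjusted p = 0.0106). It was the only member over the 1.5-fold limit that the methods of the study use, at a ratio of the means of 1.61, where, among genes with both means above 0, 4.21% of the genes tested were over 1.5-fold higher and 8.65% over 1.5-fold lower. Without siScr replicate 1 or without siZBP1 replicate 2, 3 members were over this limit. Nfkbie, at a ratio of 1.49, was just under this limit. Of the exon bases of Bcl3, 2.97% are shared with Gm16175 on the opposite strand.

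Nfkbie, which encodes IκBε, was at 6.54 and 5.98 FPKM in siScr cells and at 9.49 and 9.17 FPKM in siZBP1 cells. The groups did not overlap, and the log2 fold change was 0.51 (standard error 0.08, limma adjusted p = 0.0138). Nfkbia, which encodes IκBα, the fast-acting feedback inhibitor of RELA dimers, was at 26.1 and 25.9 FPKM in siScr cells and at 32.3 and 32.9 FPKM in siZBP1 cells. The replicates of Nfkbia were close to each other in both groups, and the log2 fold change was 0.32 (standard error 0.04, limma adjusted p = 0.0114). The promoter windows of Bcl3, Nfkbie and Nfkbia each held 1 match to the κB motif, shown above with their sequences. A window held up to 3 matches for Nfkb2 and up to 2 for Rel and for Tnfaip3, none of which was called with the settings of the report. A relation between matches and changes was not tested.

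Nfkbib and Tnfaip3 were not called. Nfkbib, which encodes IκBβ, was at 16.3 and 15.6 FPKM in siScr cells and at 13.1 and 15.2 FPKM in siZBP1 cells. It was the only member with lower values in both siZBP1 samples, and it missed the threshold (log2 fold change -0.16, 95% interval -0.39 to 0.06, limma adjusted p = 0.226). Of its exon bases, 14.8% are shared with Ccer2 on the opposite strand. Tnfaip3, which encodes A20, a ubiquitin-editing enzyme that dampens signaling upstream of IKK, was at 3.96 and 4.02 FPKM in siScr cells and at 3.98 and 4.37 FPKM in siZBP1 cells. Its groups overlapped, with a log2 fold change of 0.05 (95% interval -0.18 to 0.29, limma adjusted p = 0.705), and 2 κB matches lay in its promoter windows, 1 of which is shown above.

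The summed FPKM of the IκB genes Nfkbia, Nfkbib and Nfkbie was 48.2 ± 1.01 in siScr cells and 56.1 ± 1.72 in siZBP1 cells (SD, n = 2 each). The share of Nfkbib in this sum was 33.3% and 32.9% in siScr cells and 23.8% and 26.5% in siZBP1 cells, while that of Nfkbie was 13.4% and 12.6% against 17.3% and 16.0%. The ratio of this sum to that of the subunits was 0.525 and 0.538 in siScr cells and 0.491 and 0.522 in siZBP1 cells, with both siZBP1 values below both siScr values. The ratio of Nfkbia to Rela was 0.707 and 0.723 in siScr cells and 0.773 and 0.847 in siZBP1 cells. No test was made of these sums and ratios.

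Although the samples are labelled as mesenchymal stem/progenitor cells, macrophage transcripts were abundant in all 4 of them. In bulk samples, a different number of cells of a type and a different amount of RNA per cell cannot be told apart. Of all 11959 genes tested, 6076 had a positive log2 fold change, and 13.5% were called higher and 14.8% lower by limma. All 15 macrophage markers examined were above 1 FPKM, and 15 of 15 had a positive log2 fold change, with 9 called higher and 0 lower by limma and a median of 0.28. Their summed FPKM was 7057 to 7994 in siScr cells and 10730 to 11370 in siZBP1 cells. Most of the rise of this sum was that of Lyz2, with means of 3230 FPKM in siScr cells and 5636 FPKM in siZBP1 cells. Csf1r, the receptor for macrophage colony-stimulating factor, rose from 467 and 470.003 FPKM to 584 and 558 FPKM (limma adjusted p = 0.0147), while Ptprc, the pan-leukocyte marker CD45, at 76.6 and 76.8 FPKM against 82.7 and 88.0 FPKM, was not called (limma adjusted p = 0.0744). The 13 mesenchymal markers moved less uniformly, with 4 of the 12 tested called lower and 1 higher and a median of -0.39. Their summed FPKM was 6203 to 7283 in siScr cells and 4882 to 4918 in siZBP1 cells. Most of the fall of this sum was that of Col1a1, with means of 2793 FPKM in siScr cells and 1160 FPKM in siZBP1 cells. On the log2 scale Cxcl12 fell most, from means of 61.5 to 7.89 FPKM (limma log2 fold change -2.81, adjusted p = 0.00210). The marker called higher was Nt5e, which rose from means of 4.11 to 21.0 FPKM (limma log2 fold change 2.16, adjusted p = 0.00954). The groups of the abundant Col1a2, Col3a1 and Vim overlapped. The macrophage markers thus moved in the same direction as the NF-κB genes, with a median of 0.28 against 0.34, and their part in the rise of the NF-κB genes was not tested. Lymphoid markers were near 0, with a summed FPKM of at most 0.305 in any sample, and of the endothelial markers only Kdr had a mean over all samples of at least 1 FPKM. Of the 4 neutrophil markers in the table, S100a9, Mpo and Elane were listed at 0 in all samples, and S100a8 was at 4.52 FPKM in siZBP1 replicate 2 and under 1 FPKM in the others.

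The other genes of the pathway did not move as a block. Of 78 such genes in 6 lists, 69 were tested by limma, of which 16 were called higher and 7 lower, to be read against the 13.5% and 14.8% given above. Of the 67 with a mean of at least 1 FPKM in both groups, 14 were called higher and 7 lower. Of the 12 kinase and IKK genes, 3 rose and 3 fell. Ikbke, the IKK-related kinase IKKε, rose from 8.18 ± 0.649 to 13.2 ± 1.00 FPKM (limma log2 fold change 0.63, adjusted p = 0.0123), and Map3k8, which encodes the kinase TPL2, rose from 4.08 ± 0.438 to 6.94 ± 0.0578 FPKM (limma log2 fold change 0.65, adjusted p = 0.0130). In contrast, Ikbkg, which encodes NEMO, the scaffold of the IKK complex, fell from 14.4 ± 0.860 FPKM to 9.82 and 10.2 FPKM in the siZBP1 samples (limma log2 fold change -0.48, adjusted p = 0.0129), and Tab2, an adaptor of the kinase TAK1, fell from 54.2 ± 1.31 to 45.4 ± 0.476 FPKM (limma log2 fold change -0.25, adjusted p = 0.0184). The remaining calls of this list, named after their values were seen, were a rise of Map3k7, which encodes TAK1 (limma log2 fold change 0.27), and a fall of Chuk, which encodes IKKα (-0.23). Without a variance trend, limma called neither Map3k7 (adjusted p = 0.0594) nor Chuk (adjusted p = 0.0577). Tbk1, a kinase that ZBP1 is known to bind, was at 25.2 ± 0.929 and 28.8 ± 0.519 FPKM and did not pass the threshold (limma adjusted p = 0.0557). It did pass without small RNA genes (limma adjusted p = 0.0447). Each ± is the SD of 2 samples.

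Of 10 receptor genes, 2 rose and 0 fell. Tlr2, a receptor for bacterial lipoproteins, rose from 25.8 ± 0.845 to 46.3 ± 0.128 FPKM (limma log2 fold change 0.82, adjusted p = 0.00277; SD of 2 samples), and Tlr4, the receptor for lipopolysaccharide, rose by 0.18 on the log2 scale (limma adjusted p = 0.0356, and 0.0774 without a variance trend). The TNF receptor genes Tnfrsf1a and Tnfrsf1b, the most abundant of this list, had limma log2 fold changes of 0.10 and -0.15 and did not pass the threshold. Tnfrsf1b was called lower without small RNA genes (limma adjusted p = 0.0491). Among 17 adaptor and ubiquitin ligase genes, 4 rose and 0 fell. These were Birc3, which encodes the ubiquitin ligase cIAP2 (limma log2 fold change 0.46, adjusted p = 0.0103), Traf3, which holds NIK at low levels in resting cells (0.42, adjusted p = 0.0254), and the interleukin-1 receptor-associated kinase genes Irak1 (0.31, adjusted p = 0.0201) and Irak4 (0.28, adjusted p = 0.0363, and 0.0546 without a variance trend). Myd88, the adaptor of Toll-like receptors, was at 35.2 ± 2.47 and 40.9 ± 0.0211 FPKM and was not called (limma adjusted p = 0.0635). Without small RNA genes, limma called it higher (adjusted p = 0.0398).

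Other negative regulators gave 1 rise and 3 falls among 11 genes. Pdlim2, which encodes a nuclear ubiquitin ligase for RELA, fell from 25.3 ± 3.25 to 12.3 ± 1.47 FPKM (SD, n = 2 each), the largest change of this list (limma log2 fold change -0.98, adjusted p = 0.00953). Itch, a ubiquitin ligase that works with A20, and Otulin, a deubiquitinase of linear chains, had limma log2 fold changes of -0.22 and -0.19 (adjusted p = 0.0373 and 0.0458), whereas Tax1bp1, an adaptor of A20, had one of 0.17 (adjusted p = 0.0337). These 3 calls were lost in limma without a variance trend (adjusted p = 0.0612 for Itch, 0.0767 for Otulin and 0.0875 for Tax1bp1), and those of Itch and Otulin also with quantile normalization (adjusted p = 0.0541 and 0.0627). Commd1 was at 33.4 ± 3.67 and 34.6 ± 2.76 FPKM and was not called (limma adjusted p = 0.732). The inducible IκB family genes Nfkbiz and Nfkbid, with limma log2 fold changes of 0.08 and 0.19, were not called (adjusted p = 0.423 and 0.389).

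Of 26 genes taken as known NF-κB targets, 17 had a mean of at least 1 FPKM, and of these 6 rose and 1 fell. Cxcl5, a neutrophil chemokine, rose from 0.607 ± 0.149 to 3.18 ± 0.326 FPKM (limma log2 fold change 1.38, adjusted p = 0.00628), and Ccl2, a monocyte chemokine, from 32.0 ± 10.4 to 59.3 ± 2.56 FPKM (limma log2 fold change 0.91, adjusted p = 0.0431, and 0.129 with robust estimation). Icam1, a leukocyte adhesion molecule, and Ier3, an immediate early gene, had limma log2 fold changes of 0.44 and 0.46 (adjusted p = 0.00667 and 0.0139). The other rises of this list, named after their values were seen, were those of Il1b, which encodes the cytokine interleukin-1β (0.714 and 1.02 FPKM against 3.10 and 5.77 FPKM, limma adjusted p = 0.0210), and the chemokine gene Cxcl10 (0.35, adjusted p = 0.0230). Csf1, which encodes macrophage colony-stimulating factor, fell from 96.6 ± 0.807 to 45.8 ± 0.747 FPKM (limma log2 fold change -1.06, adjusted p = 0.00185). Each ± is the SD of 2 samples. The remaining 10 tested targets did not pass the threshold. Over all 11959 genes tested, 6076 had a positive log2 fold change, with a median of 0.0045, and 13.5% were called higher and 14.8% lower. Of the 17 tested targets, 11 had a positive log2 fold change, and their median was 0.15. Among those not called, Ccl5 was at 47.0 and 28.4 FPKM against 19.0 and 20.9 FPKM (limma log2 fold change -0.84, adjusted p = 0.0617). With the replicate number as a block, limma called Ccl5 (adjusted p = 0.0386) and Ptgs2 (-0.40, adjusted p = 0.0220) lower. Ccl5 was also called lower without small RNA genes (limma adjusted p = 0.0225). Both were named after their values were seen. Cxcl5 and Il1b had siScr means under 1 FPKM and were tested only because of their higher siZBP1 values, so that the filter depended on their change. Of the 15 targets with a mean of at least 1 FPKM in both groups, 4 rose and 1 fell, with a median of 0.05. Vcam1 is in both this list and that of the mesenchymal markers. Part of these target genes are also expressed by macrophages, whose markers rose as given above, and the part of those cells in these changes was not tested.

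**Figure D4:**
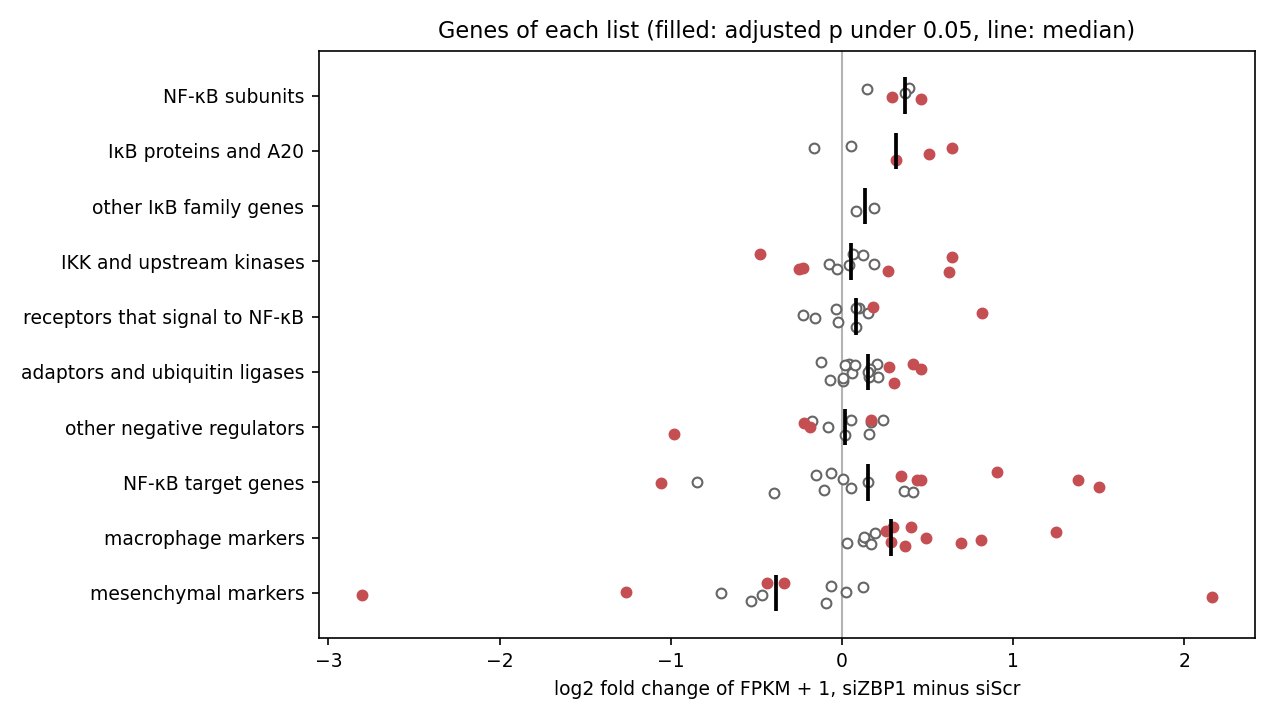
Limma log2 fold changes of FPKM + 1 between siZBP1 and siScr (x axis) for the tested genes of each list, with 1 point per gene, filled where the limma adjusted p was under 0.05, and a black line at the median; points are spread vertically only for visibility. The medians are 0.37 for the subunits, 0.32 for the IκB proteins and A20, 0.28 for the macrophage markers and -0.39 for the mesenchymal markers.

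The numbers of reads are not given in the table. The most frequent low value of FPKM times transcript length, sought among 5419 genes with 1 transcript each, was taken as that of 1 fragment. This gave rough depths of 15 and 21 M fragments for the siScr samples and 11 and 18 M fragments for the siZBP1 samples. At these depths each member rests on about 189 to 2137 fragments in a sample, for which counting alone gives a relative error of 2.16% to 7.28%.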

How the data were processed

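RNA was measured in 4 samples. The authors prepared TruSeq libraries, mapped the reads to mm10 with Tophat, extracted values with HTSeq and deposited FPKM per gene and sample. The submitters' processing notes list TopHat and Cufflinks. The gene annotation, strand setting and filters are not given in the sources used here. The deposited group means equal the means of the replicates and were not used further.

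Limma 3.58.1 (R 4.3.3), with a variance trend and no covariate, was applied to log2(FPKM + 1) of the 11959 genes with a mean of at least 1 FPKM, which left in all 10 members. P-values were adjusted by Benjamini and Hochberg over these genes, at 0.05. A fold change on this scale understates the change of low genes. The test was checked on simulated data, with changes larger than that of any member and with the spread shuffled between genes. This check does not cover changes as small as those of the members. Depth was estimated from the most frequent low value of FPKM times transcript length.

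The members and gene lists were chosen with earlier results of these data known, so that lists are described by counts and medians only. In each pathway list, up to 4 called genes with the smallest adjusted p and the 2 with the highest mean are named. Alternatives changed the pseudocount, filter, scaling, variance model, genes tested and samples. Gene models came from GENCODE M21 (GRCm38, the build of mm10), promoters from RefSeq. Python 3.11.15 with pandas 2.3.3 and matplotlib 3.10.9 was used.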

Additional observations from a re-analysis of the deposited data

How the results depend on the processing

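With all samples, the 5 called members stayed past the limma threshold in 50 of 50 values, and the other members passed it in 2 of 49, those of Nfkb2 and Rel without small RNA genes. The called pathway genes were past it in 205 of 228 values, and Chuk, Map3k7, Tlr4, Irak4, Otulin, Tax1bp1, Itch and Ccl2 each lost the call under at least 1 alternative with all samples. Of the pathway genes not called, Myd88, Tbk1 and Cyld were called higher under at least 1 such alternative, and Tnfrsf1b, Ccl5 and Ptgs2 lower. Cyld, named after its values were seen, had a limma adjusted p of 0.0522, and of 0.0413 without small RNA genes. With the replicate block, limma adjusted p was 0.0636 for Chuk, 0.0626 for Tlr4, 0.0759 for Otulin, 0.0624 for Tax1bp1 and 0.0623 for Itch. No member was called lower under any alternative. With a siScr replicate left out, the 5 genes stayed past it in 7 of 10 values, and with a siZBP1 replicate left out in 0 of 10. These fits take the spread of the lone sample from the other group. Over the samples left out, the members called higher ranged from 0 to 4, pathway genes from 0 to 10 higher and from 1 to 5 lower, all genes from 22 to 1248 higher and from 48 to 1467 lower, and members over 1.5-fold from 1 to 3. Pathway genes called lower were 7 with the settings of the report and 4 both with quantile normalization and without a variance trend, and members over 1.5-fold were 2 after rescaling to TPM; the cause was not tested. Of the 139 values of members under alternatives, 1 changed sign, that of Tnfaip3 when siZBP1 replicate 2 was left out, to a log2 fold change of -0.0028, which was not called. Replicate numbers are shared between groups. The replicate differences of both groups had a Pearson correlation over genes of -0.06, so that no shared replicate effect was seen. This cannot exclude that the numbers pair the samples, which the sources used here do not state. With the replicate block, 5 members were called higher and 0 lower, against 1465 higher and 1654 lower among all genes.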

Other observations

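Of the NF-κB target genes, 9 had a mean under 1 FPKM and were not tested. Cxcl1, a neutrophil chemokine, was at 0.196 and 0.222 FPKM in the siScr samples and at 1.37 and 1.29 FPKM in the siZBP1 samples. Il6, which encodes interleukin-6, was at 0.541 and 0.681 FPKM against 1.76 and 0.803 FPKM. Cfb was lower, at 0.898 and 0.745 FPKM against 0.593 and 0.425 FPKM. The groups of Cxcl2 overlapped, at 0.407 and 0.675 FPKM against 0.564 and 0.283 FPKM. Ccl20 and Mmp9, under 1 FPKM in all samples, were higher in both siZBP1 samples, and the groups of Nos2 overlapped. All these genes were named after their values were seen. Lcn2 and Csf2 were listed at 0 in all samples.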
